A study of Mus musculus with 10 samples.

Results

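The 6 genes Ttr, Folr1, Kl, Clic6, Otx2 and Kcne2, transcripts known from the epithelium of the choroid plexus, were followed on 10 arrays of mouse hypothalamus. They were 6 of 19505 genes measured. They were chosen by their values on a single array, titled Young 5, where earlier work on these data had found each of them higher than anywhere else, so their height on that array is given below as a description and not as a test. Each gene is read from 1 probe set, the set of oligonucleotides that stands for a transcript. The mice were male, of the inbred strain C57BL/6J, aged 24 weeks (Young, 5 arrays) or 138 weeks (Old, 5 arrays), and total RNA of the hypothalamus was hybridised. All mice were housed alike with food and water freely available, and the labels name no genotype or treatment. The labels do not say whether each array was a separate animal or a pool, so the p-values rest on array-to-array spread, part of which may be technical. Values are deposited numbers read as log2 signal.

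The choroid plexus is a folded sheet of secretory epithelium over a vascular core that hangs in the brain ventricles and makes cerebrospinal fluid. Its cells secrete carrier proteins, move folate, sulfate and ions between blood and fluid, and are sealed to each other by tight junctions. The hypothalamus borders the third ventricle, and the plexus of that ventricle lies along its roof. Transthyretin, encoded by Ttr, is the best-known product of this epithelium.

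1 property of the deposited values limits all that follows. Of the probe sets, 97.9% had a population SD over the 10 arrays of 1e-05 log2, within a tolerance of 1%, and cannot show the size of a difference. Of the genes, 276 varied (SD of at least 0.01), the 6 among them. They also varied without Young 5 (6 of 6), with an SD over the other 9 arrays of 0.050 to 0.31. Array medians ran from 6.778 to 6.783 and 0 pairs of arrays were identical. Of the 276 varying genes, Young 5 was at least 0.5 above the mean of the other 9 arrays in 15 and at least 0.5 below in 10. Old 2 was as far above the rest in 15 genes. Of 17 hypothalamic neuron markers 6 varied, and their mean level on Young 5, 9.28, lay within the 9.12 to 9.33 of the other 4 Young arrays. Of these markers only Trh was highest on Young 5, by 0.059 over the next array.

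Ttr encodes the protein that carries thyroxine and, bound to retinol-binding protein, retinol in cerebrospinal fluid and blood. Young arrays 1 to 5 had 7.10, 7.20, 7.97, 7.35 and 12.44 log2. Old arrays 1 to 5 had 7.46, 6.90, 7.63, 7.02 and 7.40. Young 5 stood 5.10 above the mean of the other 9 arrays, 7.34 ± 0.33 (SD, n = 9), a 34.4-fold difference, and 4.47 above Young 3, the next array. The other 9 arrays overlapped across ages and spanned 1.07 log2 from Old 2 to Young 3. Leaving out any 1 of them moved the distance of Young 5 only between 5.05 and 5.18.

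Kl encodes Klotho, a membrane protein that serves as co-receptor for a fibroblast growth factor hormone and is also shed into the fluid. Its values were 6.61, 6.48, 6.67, 6.52 and 8.50 log2 on Young 1 to 5, and 6.35, 6.36, 6.65, 6.74 and 6.68 on Old 1 to 5. Young 5 was 1.93 above the mean of the others, 6.56 ± 0.14 (SD, n = 9), or 3.82-fold. Old 1 and Old 2 were the lowest and Old 4 and Old 5 the next highest, so the Old arrays lay on both sides of the 4 remaining Young arrays.

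Folr1 encodes folate receptor alpha, which passes folate from blood into cerebrospinal fluid at the choroid plexus. Young arrays 1 to 5 had 6.52, 6.40, 6.39, 6.39 and 7.74 log2, and Old arrays 1 to 5 had 6.34, 6.45, 6.32, 6.29 and 6.24. Young 5 was 1.37 above the mean of the others, 6.37 ± 0.084 (SD, n = 9), or 2.58-fold. Among the rest, Young 1 was highest and Old 5 lowest, and 4 of the 5 Old arrays lay below every Young array while Old 2 lay above Young 2, Young 3 and Young 4.

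Kcne2 encodes a small accessory subunit that sets how potassium channels such as Kcnq1 open in secretory epithelia. Its values were 5.75, 5.66, 5.80, 5.68 and 6.89 log2 on Young 1 to 5, and 5.69, 5.68, 5.76, 5.64 and 5.69 on Old 1 to 5. Young 5 was 1.19 above the mean of the others, 5.71 ± 0.053 (SD, n = 9), or 2.27-fold. The other 9 arrays spanned only 0.16 log2, so the distance of Young 5, 22.5 SDs of the others, was the greatest among the 6 genes on that scale. Those 9 arrays lay at 5.64 to 5.80, below every array median (6.778 to 6.783), where the lowest deposited value was 5.00. For Folr1, Kl and Otx2 the other 9 arrays also lay below those medians. Whether low signal shaped the spread, folds or array order of these genes was not tested.

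Clic6 encodes a member of the chloride intracellular channel family. Young arrays 1 to 5 had 7.60, 7.67, 7.69, 7.49 and 8.33 log2, and Old arrays 1 to 5 had 7.68, 7.72, 7.83, 7.98 and 7.91. Young 5 was 0.60 above the mean of the others, 7.73 ± 0.15 (SD, n = 9), or 1.52-fold, and 0.35 above Old 4. This was the smallest distance among the 6, at 3.93 SDs of the others, and behind Young 5 the next 4 arrays in order were all Old.

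Otx2 encodes a homeodomain transcription factor needed to form and maintain the choroid plexus. Its values were 6.58, 6.34, 6.48, 6.49 and 7.09 log2 on Young 1 to 5, and 6.55, 6.49, 6.44, 6.47 and 6.39 on Old 1 to 5. Young 5 was 0.62 above the mean of the others, 6.47 ± 0.075 (SD, n = 9), or 1.54-fold. The lowest array, Young 2, and the second highest, Young 1, were both Young.

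**Figure D1:**
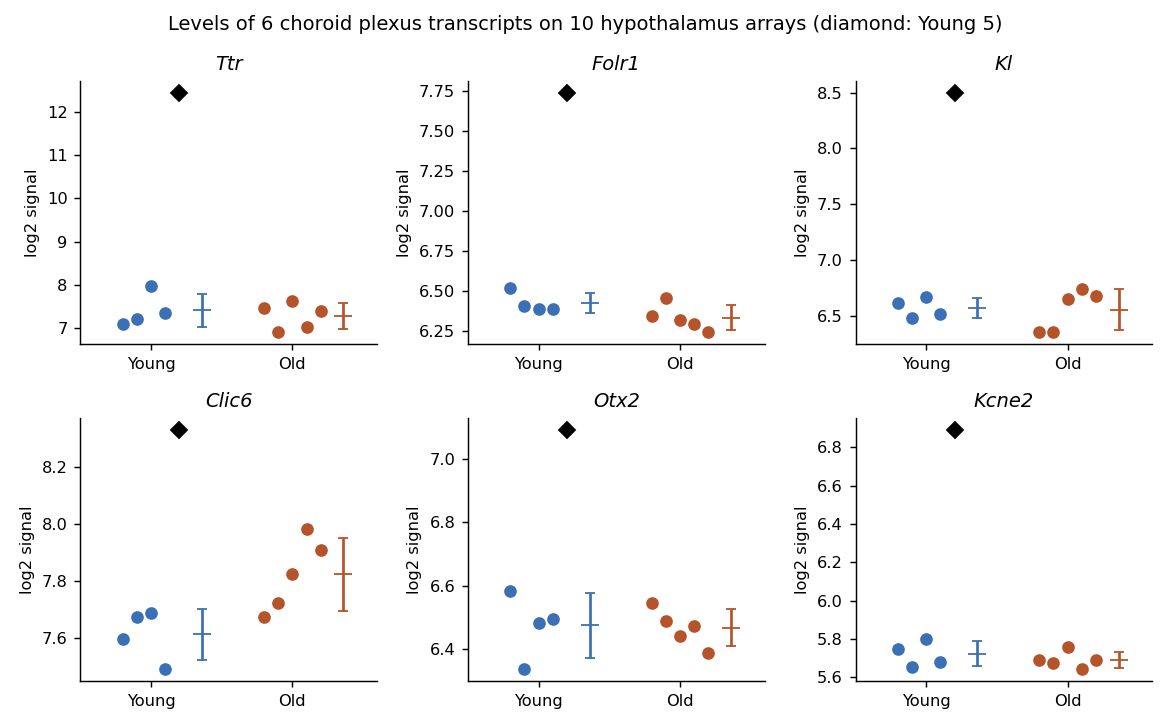
Log2 signal (vertical axis, a separate scale for each gene) of the 6 genes on the 5 Young and 5 Old arrays. Points are arrays, the black diamond is Young 5, and the side bars are the mean and SD of the other 4 Young arrays and of the 5 Old arrays; Young 5 is highest in 6 of 6 genes, by 0.35 (Clic6) to 4.47 (Ttr) over the next array.

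All 6 genes were highest on Young 5, as the choice of members fixes. Among all varying genes 14.5% were highest on that array and 5.43%, or 15, lay at least 0.5 above the mean of the others. The 15 include the 6 themselves. The rest were 8 other choroid plexus epithelium genes and 1 stromal gene of the lists described below, with 0 outside them. Listed genes can vary because of Young 5, so this is no independent support. In bulk tissue, more cells of a type and more RNA per cell cannot be told apart.

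Because Otx2 is both a member and a regulator, and the 6 genes were high together, their promoters were read for the letters TAATCC, the core bound by homeodomain proteins of the Otx type, or GGATTA on the other strand. RefSeq (build GRCm38.p6) gave 7 windows of 250 bases before an annotated start, for 3 of the 6 genes: Kl (1 window), Kcne2 (2) and Otx2 (4). No window of Ttr, Folr1 or Clic6 was used here. 1 of the 7 windows held a match, in Otx2, 211 bases before the start, against 6.25% of all 32851 windows. Windows of Otx2 overlap in part, and 7 are too few to compare with that share. The 3 windows shown, the first of Kl and Kcne2 and the matching one of Otx2, carry the match in capitals and lie at chr5:150952357-150952606 (+ strand), chr16:92292139-92292388 (+) and chr14:48665110-48665359 (- strand).
Kl: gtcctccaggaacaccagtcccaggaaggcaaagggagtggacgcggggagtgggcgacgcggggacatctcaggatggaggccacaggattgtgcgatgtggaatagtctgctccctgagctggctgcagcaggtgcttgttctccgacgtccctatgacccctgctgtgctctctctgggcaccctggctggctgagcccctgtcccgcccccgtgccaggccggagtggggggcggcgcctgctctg
Kcne2: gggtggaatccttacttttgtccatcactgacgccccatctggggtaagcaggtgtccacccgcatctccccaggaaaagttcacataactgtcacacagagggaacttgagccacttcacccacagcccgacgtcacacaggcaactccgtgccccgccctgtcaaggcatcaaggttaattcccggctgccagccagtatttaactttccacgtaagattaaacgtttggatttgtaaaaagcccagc
Otx2: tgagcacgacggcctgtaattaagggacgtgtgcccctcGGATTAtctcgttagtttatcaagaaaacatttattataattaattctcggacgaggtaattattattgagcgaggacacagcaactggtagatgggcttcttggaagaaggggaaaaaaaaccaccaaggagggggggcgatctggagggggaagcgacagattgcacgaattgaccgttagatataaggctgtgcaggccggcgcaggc
The Kl window was 66.8% G and C with 13 CpG pairs, against medians of 52.4% and 6 over all windows, and the Kcne2 window had 52.4% and 9. A match describes letters only, and a window without one says nothing about binding.

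Kcne2 and Clic6 lie near each other on chromosome 16, with 11 annotated genes between them in RefSeq, 5 of them protein-coding. Of these 5, 4 were measured (Smim11, Fam243, Kcne1 and Rcan1) and 0 varied, so the deposited values cannot show whether the genes between the pair differed on Young 5.

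The pattern was next read in choroid plexus genes outside the 6, from lists of secreted proteins, transporters, surface proteins, junction proteins and transcription factors. Of 40 listed genes 37 were measured and 10 varied. All 10 were highest on Young 5, by 0.27 (Slc31a1) to 2.42 (Kcnj13) over the next array, and all 10 still varied without it (SD 0.033 to 0.12). A gene can be among the varying ones because of Young 5, so this count is no independent support.

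Kcnj13, an inward rectifier potassium channel of the apical membrane, stood second to Ttr in distance. It had 8.85 log2 on Young 5 against 6.30 ± 0.10 (SD, n = 9) in the others, a 5.85-fold difference, with every other array between 6.16 and 6.43. The secreted peptide precursor Ecrg4 was 3.36-fold above the mean of the others and F5, coagulation factor V, 2.22-fold. Cldn1, a tight junction claudin, was 1.67-fold above them, Lbp, a lipopolysaccharide-binding protein, 1.62-fold and Igfbp2, a binding protein for insulin-like growth factors, 1.40-fold. Of the transporters and enzymes of ion balance, Car12, a carbonic anhydrase, was 1.49-fold above the mean of the others. The sulfate carrier Slc13a4 was 1.46-fold, the metalloreductase Steap1 1.43-fold and the copper importer Slc31a1 1.27-fold above it.

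The other 27 measured genes of these lists did not vary, among them Aqp1, the water channel of this epithelium, Slc4a5, a bicarbonate transporter, and Tmem72. On Young 5 their values were highest in 3 (11.1%; 9.09% of all genes that did not vary) and lowest in 7 (25.9%; 9.69%). The 7 were Aqp1, Slc4a5, Tmem72, Trpv4, Slc29a4, Zic1 and Cdh3, and Young 5 minus the mean of the other arrays ran from -1.92e-05 to -1.39e-05 log2 in them; they were named after their values were seen. The 3 were Ace, Epcam and Lmx1a, of which Ace, an angiotensin-converting peptidase, was 0.0042 above the mean of the others. Differences of that size have no reading as expression.

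**Figure D2:**
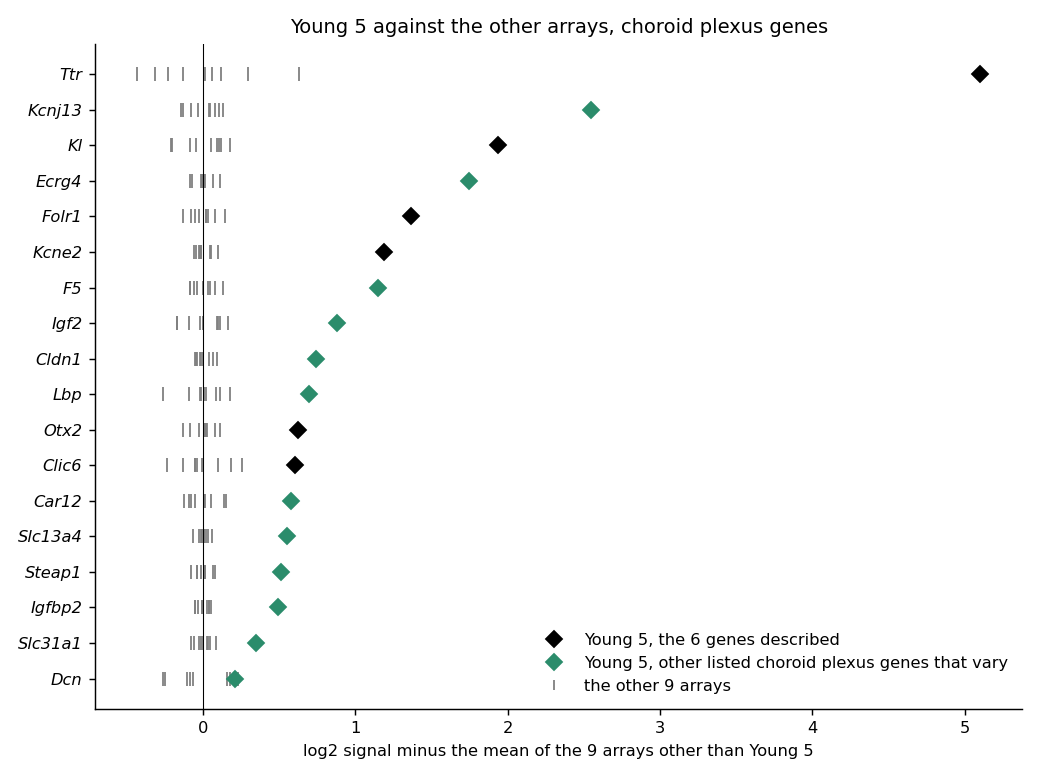
Log2 signal minus the mean of the 9 arrays other than Young 5 (horizontal axis) for the 6 genes and the 12 other listed choroid plexus genes that varied. Grey ticks are the 9 arrays and diamonds are Young 5; Dcn is the 1 gene of 18 where Young 5 lies among the other arrays.

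Of 12 measured genes of the stroma and meninges, 2 varied. Igf2, a growth factor made by plexus stroma and meninges, had 9.33 log2 on Young 5 against 8.45 ± 0.13 (SD, n = 9) in the others, or 1.84-fold. Dcn, the fibroblast proteoglycan decorin, had 7.89 on Young 5, within the 7.43 to 7.91 of the other arrays. Of 10 measured ependyma markers 1 varied, Hdc, which is also made by hypothalamic histamine neurons. Hdc was highest on Young 5 by 0.092 over the next array. It had 8.40 log2 there, followed by Old 5, Young 4 and Old 4 at 8.30 to 8.31.

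Some of the 6 genes are also made outside the choroid plexus, so markers of other tissues were read on the same arrays. Liver makes Ttr: of 9 measured liver markers 2 varied, and on Young 5 Alb, serum albumin, was lowest of the 10 arrays at 5.92 log2 and Mup2 stood ninth at 5.95. Both were highest on Young 3, which was also second highest for Ttr. Pineal gland and retinal pigment epithelium make Ttr or Otx2, and kidney makes Kl, but 0 of 6, 0 of 6 and 0 of 5 measured markers varied, so these values cannot bear on them. The same holds for the 10 tanycyte markers. Of the pituitary markers Gh varied and had 6.08 on Young 5, within the 5.95 to 6.48 of the others. Tcf7l2, a thalamic marker also found in oligodendrocytes, had 9.09 on Young 5, within the 8.99 to 9.77 of the others. The part of any of these tissues in the height of the 6 genes was not tested.

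**Figure D3:**
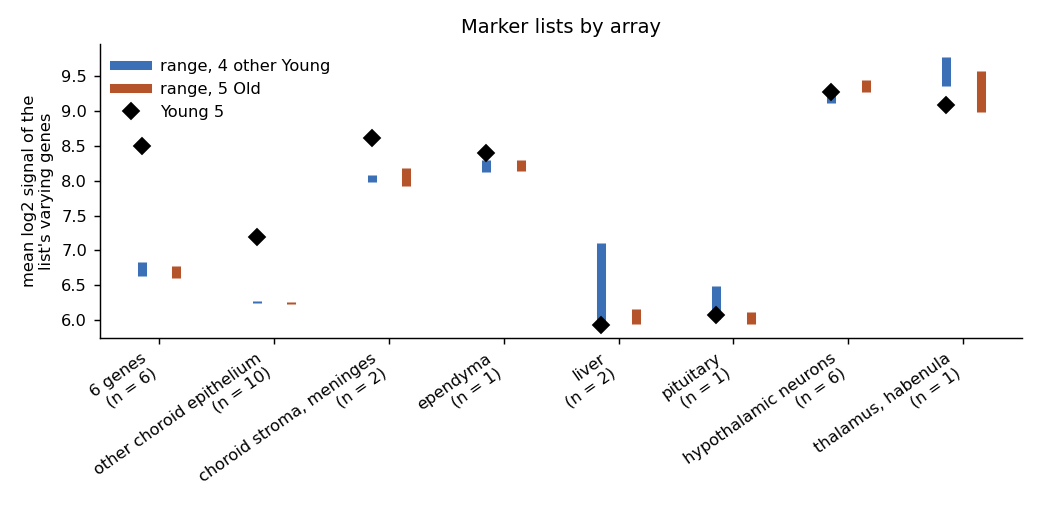
Mean log2 signal (vertical axis) of the varying genes of each marker list; n is their number. Bars are the range over the other 4 Young and over the 5 Old arrays and the diamond is Young 5. It lies above both ranges for the choroid plexus lists and for ependyma, which is Hdc alone. It lies below or within them for liver (2 genes), hypothalamic neurons (6), pituitary and thalamus (1 each). A list of 1 or 2 genes does not stand for a tissue.

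Among the varying genes, likeness to Ttr was measured by Pearson r over the 10 arrays, a value that Young 5 alone largely sets and that is given without a p. Of the 20 varying genes most like Ttr, 5 were the other members, 10 the other varying epithelium genes and 1 Igf2. The members were chosen on Young 5 and listed genes can vary because of it, so these places are no independent support. Kcne2 came first, then Cldn1 (r = 0.984), Kcnj13 (0.979) and Igfbp2 (0.978), and Clic6 was the last of the members, in place 20. Outside the lists of choroid plexus genes the nearest were Trpm3, a cation channel gene (0.877), Pon3, a paraoxonase (0.868), Slco1c1, a thyroxine transporter (0.856), and Lamb1, a laminin chain (0.845). The lists are not exhaustive, so a gene outside them may still be made by the choroid plexus. Trpm3, Pon3 and Slco1c1 were 1.38-fold, 1.38-fold and 1.39-fold above the mean of the others on Young 5. Next came Pdia3 and Calr, chaperones of the endoplasmic reticulum (0.767 and 0.698), Rspo3, a Wnt agonist (0.712), Sulf1, a heparan sulfatase (0.708), and Xbp1, a regulator of secretory capacity (0.692); these were at most 1.15-fold above. Uqcrb, Dynll1 and Srp54a followed, with r from 0.549 to 0.578. Over all genes outside the lists, 10 of the 12 nearest had an SD of 1e-05, led by Nifk (0.931) and Timd4 (0.929), and the other two were Gmnc (0.892) and Trpm3.

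At the other end, the varying genes furthest below the other arrays on Young 5 were Slc6a3, the dopamine transporter, at -1.09 log2, Mid1 at -0.75, Fbln5 at -0.71, Lcn2 at -0.60 and Ifit3 at -0.60. For Slc6a3 the other 9 arrays spanned 6.65 to 8.90, and Young 5, at 6.91, lay inside that range. Young 4, Old 4 and Old 5 were also low, at 7.04, 7.22 and 6.65, and every other array was at 8.26 or above. The low value was thus not particular to Young 5. Mid1 and Fbln5 were lowest on Young 5.

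Without Young 5, Ttr was set against each of the other 5 genes, and 0 of the 5 relations passed; the pairs among those 5 were not computed. Over the other 9 arrays Ttr and Kcne2 had r = 0.73 (rho 0.77), with an exact 2-sided permutation p of 0.0346 for r and 0.0214 for rho. Adjusted over the 5 relations with Ttr these were 0.173 and 0.107, so the relation did not pass, and without Young 3 and Old 2, the arrays farthest from the median of Ttr, r was 0.47. Both genes had Young 3 and Old 3 as their highest of the 9. The relation of Ttr with Kl had r = 0.29 (rho 0.13), with Folr1 -0.30 (rho -0.42), with Clic6 -0.091 (rho -0.017) and with Otx2 -0.069 (rho -0.13). For these 4 the exact permutation p for r ran from 0.44 to 0.841 and the adjusted p from 0.768 to 0.841. For rho they ran from 0.27 to 0.982 and from 0.674 to 0.982. Without Young 3 and Old 2, r was -0.27 for Kl, -0.37 for Folr1, -0.053 for Clic6 and -0.13 for Otx2. Each age holds too few arrays for a correlation within it.

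Old was compared with Young over all genes with limma and Benjamini-Hochberg adjustment, 2-sided at 0.05, with all arrays and without Young 5. The 6 genes were chosen for their height on Young 5, a Young array, so their differences with 10 arrays lean toward lower in Old. For the 6, the values with 10 arrays are therefore a description and not a test. Of the 6 genes 0 were called with 10 arrays, where 43 of 19505 genes were (0.220%), and 0 without Young 5, where 35 were (0.179%). At an unadjusted p under 0.05 the counts over all genes were 1331 and 1265. Of the called genes 86.0% and 88.6% were higher in Old, shares that became 6.68% and 9.07% after quantile normalization and 0.475% and 0.490% after median centring. Without Young 5 those scalings called 44.3% and 99.3% of all genes. They moved the median of all genes by at most -0.0026 log2, a size with no reading as expression. The turned shares therefore show no direction of change with age. With the fit limited to varying genes, 0 of the 6 were called with 10 arrays (35.9% of varying genes) and 1, Clic6, without Young 5 (32.7%).

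With all 10 arrays Ttr was lower in Old by 1.13 log2 in the mean (8.41 ± 2.28 in Young and 7.28 ± 0.31 in Old, SD, n = 5), a 2.19-fold gap with an SE of 0.97 and an adjusted p of 0.891. Without Young 5 the Young mean was 7.41 ± 0.39 (SD, n = 4) and the difference -0.13 (SE 0.22, adjusted p = 0.969). The 95% interval ran from -3.32 to 1.05 with that array and from -0.62 to 0.37 without it. The sign turned, to 0.061, when Young 3 was left out as well, and the medians of Old and Young differed by 0.045 in the other direction with all 10 arrays. Kl went from -0.40 (SE 0.37) to -0.012 (SE 0.095), with an interval of -0.23 to 0.21 without Young 5, and its sign also turned with medians (0.041 with 10 arrays). Kcne2 went from -0.26 (SE 0.22) to -0.031 (SE 0.033) and Otx2 from -0.13 (SE 0.12) to -0.0067 (SE 0.050). Their intervals without Young 5 were -0.11 to 0.046 and -0.12 to 0.11. The adjusted p of Kl, Kcne2 and Otx2 lay between 0.891 and 0.996 in both fits.

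Folr1 kept a small gap: -0.36 (SE 0.25, adjusted p = 0.871) with 10 arrays and -0.094 (SE 0.045, adjusted p = 0.80) without Young 5, from 6.42 ± 0.063 (SD, n = 4) to 6.33 ± 0.078 (SD, n = 5). The exact 2-sided permutation p over arrays was 0.0556 with all 10 and 0.111 without Young 5. The first of these includes the array on which the gene was chosen. The interval without it was -0.20 to 0.0098, so the data allow a fall of that size and no difference. Without moderation the SE was larger, 0.048.

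Clic6 was the 1 gene of the 6 with the higher mean in Old in both fits. With 10 arrays Old was 0.067 above Young (SE 0.15, adjusted p = 0.973). Without Young 5 the difference was 0.21 (SE 0.070), from 7.61 ± 0.090 (SD, n = 4) to 7.82 ± 0.13 (SD, n = 5), or 1.16-fold, and 4 of the 5 Old arrays lay above every remaining Young array. Old 1, at 7.68, lay between Young 2 and Young 3. The exact 2-sided permutation p was 0.0317, where the smallest possible is 0.0159. Adjusted over all genes p was 0.632, and in the fit to varying genes it was 0.0468, where 22.9% of 275 genes were called higher in Old. This was 1 of 12 permutation tests of means (6 genes, with and without Young 5), and the other 11 gave 0.0556 or more. Those with Young 5 include the array on which the 6 genes were chosen.

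**Figure D4:**
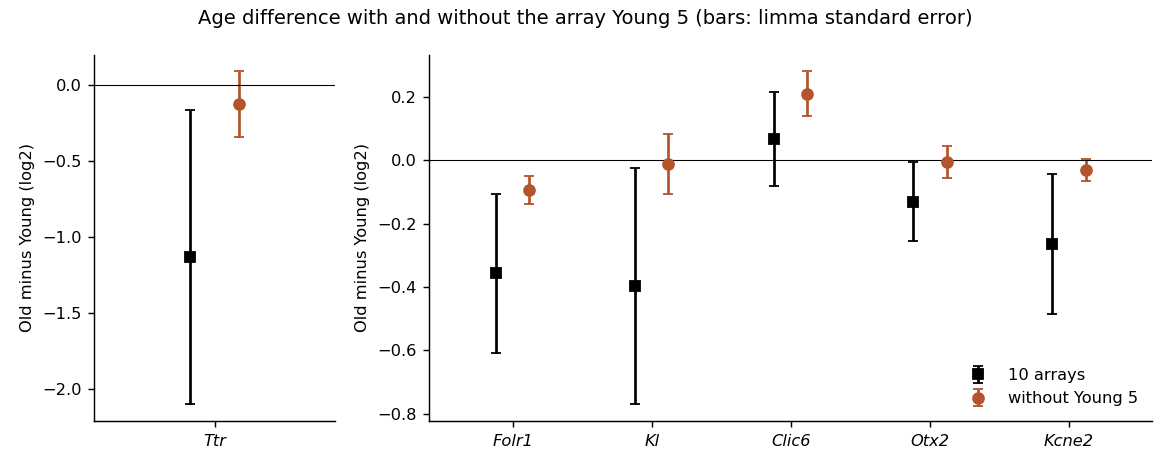
Old minus Young (vertical axis, log2) for the 6 genes, with all 10 arrays (black squares) and without Young 5 (brown circles); bars are limma's standard error and Ttr has its own scale. Leaving out 1 array moves Ttr from -1.13 to -0.13 and Clic6 from 0.067 to 0.21.

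The median difference of the 6 genes was -0.31 with all arrays and -0.021 without Young 5, where the median over all varying genes was -0.019 and -0.0073. The value with all arrays rests on the array the 6 were chosen on, so it is no test against that background. The 10 other varying epithelium genes shifted in the same way. All 10 were lower in Old with Young 5 included (-0.48 to -0.079, median -0.14). Because all 10 were highest on Young 5, that array largely sets this direction, which is no independent support. Without it 7 were lower and 3 higher (-0.039 to 0.039, median -0.013), and 0 were called in either fit. Igf2 had an Old minus Young difference of -0.21 (SE 0.041) without Young 5, and its 4 remaining Young arrays, 8.54 to 8.61, lay above all 5 Old arrays, 8.28 to 8.45. Adjusted over all genes its limma p was 0.234, so it was not called. In the fit to varying genes it was 0.00643, where 90 of 275 genes (32.7%) were called. Of the genes called in the fits to all genes, 33 were shared by the 43 with Young 5 and the 35 without it.

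Genes that work with the 6 were read from 7 lists on thyroid hormone, retinol, folate, Klotho and its growth factor receptors, channel subunits, the chloride channel family and homeobox regulators. Of 69 listed genes 62 were measured, 2 varied (Slco1c1 and Alb) and 0 were called in either fit. Slco1c1, which carries thyroxine across brain barriers, was highest on Young 5 at 9.04 against 8.57 ± 0.094 (SD, n = 9), and without that array Old minus Young was -0.080 (SE 0.056). The folate list (11 measured), the Klotho list (11), the KCNE list (8), the retinol list (6), the chloride channel list (4) and the homeobox list (10) held 0 varying genes, so their deposited values cannot show whether these partners changed.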

How the data were processed

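RNA was hybridised, per the labels, to the 1-colour Clariom S Mouse array. The authors deposited 1 log2 value per probe set and array; the log2 base was read from the range of 5.00 to 12.97, and how the signals were corrected, normalized and summarised is, in the sources used here, not given. The number of arrays limits the precision.

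Probe sets were named through the platform annotation: 19572 of 22206 had 1 symbol, 0 several and 2634 none. All 19572 identifiers matched RefSeq (GRCm38.p6), with 0 symbols changed. Where a gene had several probe sets, that with the highest mean was kept (19505 genes); the 6 genes had 1 each. Samples were grouped by title. Old minus Young was fitted over all genes with limma 3.58.1 in R 4.3.3 (lmFit, eBayes, Benjamini-Hochberg). The eBayes step moderates the spread of each gene toward 1 SD shared by all genes. That SD was 7e-06 log2 with 10 arrays and 7.09e-06 without Young 5, near that of the genes that did not vary. For the 6 genes, SEs were smaller and intervals narrower than without moderation. Exact permutation tests over arrays and correlations used scipy 1.17.1. The procedure was tested on simulated data. Alternatives covered normalization, filters, moderation, the replicate number as a block and single arrays left out.

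The genes, lists and comparisons were chosen with earlier results of these data known. Named genes were the 6, listed genes that varied, those most like Ttr, and those with the largest and smallest distance of Young 5 from the other arrays. Of the listed genes, 17, among them Enpp2 and Prlr, were not analysed here.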

Additional observations from a re-analysis of the deposited data

Results flagged for a closer look

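In 46 varying genes, the 5 arrays of each age were read for an array far from its neighbours: the gap from the outermost array to the next, as a share of the group's range, above Dixon's 95% critical value for 5 arrays. The 46 were the 6 genes, the varying genes of the marker and pathway lists, and the varying genes picked for likeness to Ttr or for the distance of Young 5. Of 92 groups 21 passed, and in 16 of them Young 5 was the high array. Chance alone passes about 1 in 20 groups, but that rate is no yardstick here, since the 6 genes and those picked for likeness or distance were chosen on Young 5 and listed genes can vary because of it.

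Among the 6, the height behind this share was also the ground for choosing them. Whether a member is past the value therefore tests nothing, and the share is given as a description. It was 0.838 for Ttr, 0.903 for Folr1, 0.905 for Kl, 0.765 for Clic6 and 0.882 for Kcne2, while Otx2 was not past the value. Among the other choroid plexus genes it was 0.932 for Kcnj13, 0.891 for Ecrg4, 0.86 for Cldn1, 0.844 for Slc13a4 and 0.829 for Igfbp2. It was 0.826 for F5, 0.785 for Steap1, 0.741 for Lbp and 0.91 for the stromal gene Igf2. Outside those lists it was 0.849 for Pon3 and 0.824 for Trpm3.

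The other 5 groups had another array apart. Young 3 was high for Lcn2 (0.925; 7.34 log2 against 5.88 on the next array) and for Alb (0.735; 6.87 against 6.17). Young 2 was high for Gh (0.862; 6.48 against 6.08). Among Old arrays, Old 3 was low for Dcn (0.795; 7.58 against 7.85) and Old 5 was low for Ecrg4 (0.711; 5.74 against 5.81).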

How the results depend on the processing

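Under the alternatives 323 values kept their direction and side of the threshold or stayed near the main value, 15 turned sign, 14 counts moved by over 1.5 times and 4 differences newly passed. With 10 arrays, 43 genes were called by limma, and 8179 after quantile normalization, 19365 after median centring, 99 among varying genes alone and 24 without Young 3 and Young 5. Without Young 5, 35 were called, and 8644, 19371 and 90 under the first 3 of these and 22 without moderation. Leaving out single arrays gave 29 to 42 and 11 to 35 calls, with 11 without Young 1, 13 without Young 2, 18 without Young 4 and 16 without Old 4. Quantile normalization and median centring moved the median of all genes by at most -0.0026 log2.

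Over the varying genes as a whole, the deviations of same-numbered arrays had correlations of -0.22 to 0.28 over the 5 numbers. The numbers were therefore not taken to pair the arrays. A single gene can still split by number. Slc6a3 was 6.65 to 7.22 on arrays 4 and 5 of both ages and 8.26 to 8.90 on the others. Whether those numbers mark a shared source of such splits was not tested. With the replicate block 11 genes were called with 10 arrays and 0 without Young 5 (1261 at an unadjusted p under 0.05), and Otx2 without Young 5 turned to 0.0137.

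Old minus Young without Young 5 passed for Clic6 after quantile normalization (0.2082), median centring (0.2074) and among varying genes alone (0.2101), and for Folr1 after median centring (-0.0967). These settings called 8644 of 19505 genes, 19371 of 19505 and 90 of 275, so a pass after median centring says nothing about either gene. A pass after quantile normalization, shared by so many genes, says little about Clic6. Without Young 3 and Young 5, Ttr turned to 0.0615 and Kl to 0.0215. As medians, Ttr was 0.0448 and Kl 0.0409 with 10 arrays, and 0.1181 and 0.0893 without Young 5. The correlation of Ttr with Kl turned to -0.2675 without Young 3 and Old 2. Leaving out 1 more array beside Young 5 gave -0.2272 to 0.0615 for Ttr, -0.0575 to 0.0389 for Kl and -0.0525 to 0.0297 for Otx2. The cause of these moves was not tested. Most deposited values have a spread too small to carry the size of a difference, and that limits every gene that did not vary.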

Other observations

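Of the probe sets with no gene symbol, 65 varied, and Young 5 was the highest array in 8 of them. In 2 it lay at least 0.5 log2 above the mean of the other 9 arrays. The first had 12.09 log2 on Young 5 against at most 10.54 on the others, 1.66 above their mean. The second had 8.60 against at most 8.05, or 0.65 above their mean. No gene is named for either.

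Decorin, encoded by Dcn, was the varying stromal gene that Young 5 did not set apart. Without Young 5 its Old mean was 0.30 above Young (SE 0.078), opposite in sign to Igf2. In limma its p was 0.428 adjusted over all genes, so it was not called. In the fit to varying genes it was 0.0154, where 22.9% of 275 genes were called higher in Old. The lowest Old array, Old 3, lay below Young 2 and Young 4.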
